A study of Mus musculus with 24 samples.

Results

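The HoxA genes *Hoxa3*, *Hoxa5*, *Hoxa7*, *Hoxa9* and *Hoxa10* and the gene *Meis1*, whose product binds DNA together with HOX proteins, were followed across 8 groups of mouse lymphoid progenitors (LPs) and early T cell progenitors. These 6 genes were chosen by symbol, each has 1 line in both deposited tables, and they are 6 of the 55487 genes listed. The 3′ mRNA of 24 libraries was measured, 3 in each group, in 2 experiments that were scaled and tested separately. All cells came from LP lines of fetal liver that lacked *Ebf1*, a gene needed for B cell development, and expressed Cas9 from a Rosa26 knock-in, so the controls carried both alleles too. The lines grew on OP9 stroma with SCF, Flt3L and IL-7. Cells carrying a retroviral sgRNA and the marker hNGFR were sorted 5 days after transduction. In experiment 1, LPs and Phase 1 cells carried either sgControl, with guides against luciferase, or sgCbfb, against the gene for the shared partner of the RUNX factors. Phase 1 cells are the first stage of T cell development, reached here by 2 days of culture on OP9 cells that present the Notch ligand DLL4. In experiment 2, LPs carried sgControl, sgCbfb, sgCTCF, against a protein that organizes chromatin loops, or sgMed12, against a subunit of the Mediator kinase module. A transduced population holds a mixture of edited alleles, the lines may each stem from few cells, and which line gave which library was not given in the sources used here.

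HOX proteins are homeodomain transcription factors. The posterior HoxA genes are active in hematopoietic stem cells and lymphoid progenitors and are turned down as cells differentiate. *Hoxa9* and *Hoxa10* are known for roles in progenitor growth and leukemia, and *Hoxa3*, *Hoxa5* and *Hoxa7* lie beside them in the same cluster. MEIS and PBX proteins belong to the TALE class of homeodomain proteins and act as cofactors of HOX proteins. The cluster holds domains bounded by CTCF sites in other tissues, the MLL and DOT1L proteins keep it active, and Polycomb complexes keep it silent.

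On the GRCm38 build the 5 HoxA genes lie on the minus strand of chromosome 6, within a cluster of 11 HoxA genes that spans 52155590 to 52260880. *Hoxa3* (ENSMUSG00000079560) is annotated from 52169062 to 52213336, *Hoxa5* (ENSMUSG00000038253) from 52201754 to 52204587, *Hoxa7* (ENSMUSG00000038236) from 52214491 to 52221854, *Hoxa9* (ENSMUSG00000038227) from 52223100 to 52231089 and *Hoxa10* (ENSMUSG00000000938) from 52231197 to 52240854. *Meis1* (ENSMUSG00000020160) is on the minus strand of chromosome 11, from 18879817 to 19018985. The exons of *Hoxa5* and *Hoxa10* share no bases with the exons of another annotated gene. *Hoxa5* does lie within the annotated span of *Hoxa3* on the same strand. The exons of *Hoxa7* share 586 bases, 20.4% of their length, with *Hoxaas3* on the other strand, and those of *Hoxa3* share 503 bases (8.36%) with *Hoxaas2* on the other strand and 482 bases (8.01%) with *Gm28308* on the same strand. *Hoxa3* also shares 437 bases (7.27%) with *Gm29430* on the other strand. *Meis1* shares 1029 exon bases (9.77%) with *Gm37818* on the same strand and 896 (8.51%) with *Gm16140* on the other. Whether reads were counted by strand was not given in the sources used here, so reads in these overlaps could not be assigned with certainty.

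The promoter sequences of *Hoxa9*, *Hoxa5* and *Meis1* are shown as those of a posterior gene, of a gene with some of the largest differences described here and of the cofactor gene. They are the 250 bases before the RefSeq start on GRCm38.p6, 5′ to 3′ on the minus strand, at chr6:52227371-52227620, chr6:52204588-52204837 and chr11:19018970-19019219. Capitals mark matches to TGTGGT or TGCGGT (the core letters bound by RUNX factors). They also mark TGGGAA (the core bound by RBPJ, the DNA-binding partner of Notch) and the core of the CTCF motif. TGATNNAT (HOX with PBX) was searched too but not put in capitals. Each search covered both strands.
Hoxa9: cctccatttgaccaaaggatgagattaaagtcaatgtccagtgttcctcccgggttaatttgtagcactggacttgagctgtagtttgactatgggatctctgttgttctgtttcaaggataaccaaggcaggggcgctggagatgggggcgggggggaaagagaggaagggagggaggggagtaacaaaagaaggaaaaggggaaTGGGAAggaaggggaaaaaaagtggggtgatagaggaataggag
Hoxa5: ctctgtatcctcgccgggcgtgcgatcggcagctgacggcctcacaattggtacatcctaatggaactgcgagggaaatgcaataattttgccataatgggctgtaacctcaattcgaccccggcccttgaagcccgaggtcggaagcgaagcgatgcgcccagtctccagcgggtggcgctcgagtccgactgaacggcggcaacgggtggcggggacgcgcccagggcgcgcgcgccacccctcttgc
Meis1: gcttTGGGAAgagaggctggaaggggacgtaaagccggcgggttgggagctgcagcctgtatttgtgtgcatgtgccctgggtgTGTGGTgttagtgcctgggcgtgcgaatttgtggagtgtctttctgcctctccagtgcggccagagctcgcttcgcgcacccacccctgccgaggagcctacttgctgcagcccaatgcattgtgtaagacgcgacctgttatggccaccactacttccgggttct

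These windows, with the 50 bases after each start, were searched for all 6 genes and for 32851 promoters in all. *Hoxa9* has TGGGAA at position −44 from the start, *Hoxa3* has it at position 38, and *Meis1* has TGGGAA at −246 and TGTGGT at −166. None of these letters was found for *Hoxa5*, *Hoxa7* or *Hoxa10*. TGGGAA is in 25.6% of all promoters, TGTGGT in 16.8%, TGCGGT in 6.45%, the CTCF core in 2.43% and TGATNNAT in 8.85%, so the matches are common ones and describe letters only.

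Reads on genes ranged from 1363264 to 1743320 per library in experiment 1 and from 3354486 to 4326787 in experiment 2, so 3 reads are worth 1.72 to 2.20 CPM (reads of a gene scaled to the library's reads on genes) in the first and 0.693 to 0.894 CPM in the second. Replicate 3 of Phase 1 sgControl and replicate 2 of sgMed12 stood farthest from their own groups, and some results that use them are also given without them. *Cbfb* itself fell with sgCbfb in LPs of experiment 1 (from 86.5 ± 9.30 to 40.2 ± 5.18 CPM, SD, n = 3) and of experiment 2 (from 114 ± 8.37 to 48.4 ± 6.93 CPM), but in Phase 1 cells it was 66.5 ± 19.2 with sgControl and 53.9 ± 9.69 CPM with sgCbfb, with overlapping libraries. *Ctcf* was 391 ± 30.7 CPM with sgControl and 306 ± 30.0 CPM with sgCTCF, and *Med12* was 7.01 ± 3.38 and 5.14 ± 1.26 CPM. A 3′ read lies away from the edited site, so these levels do not measure editing. A gene was called changed at an adjusted P value under 0.05 in limma, more than 2-fold between the group means and more than 10 CPM in the higher mean. All differences below are of log2(CPM + 1), with the standard error, and CPM values of different genes are not compared, since they depend on where reads map. Nothing in the sources ties the replicates of a group to separate lines, although the study calls them biologically independent, so P values measure the spread between these libraries.

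The first question was whether the genes change between the LP and Phase 1 stages. In sgControl cells, 5 of the 6 members were called lower in Phase 1, and no member was called higher, where 1.74% of the 13239 genes tested were called lower. The 5 HoxA members are also the ones whose libraries did not overlap between the stages, with Phase 1 below LP, as 12.1% of all genes were. The median difference of the 6 members was −1.89, and that of all genes tested was −0.07.

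*Hoxa9* had 889, 775 and 797 CPM in the 3 LP libraries and 273, 252 and 235 CPM in the 3 Phase 1 libraries. The spread within each stage was small beside the gap between the lowest LP and the highest Phase 1 library. The mean fell from 821 ± 60.6 to 253 ± 18.9 CPM (−1.69 ± 0.11, 95% interval −1.92 to −1.46, adjusted P value 7.7e-10). *Hoxa10*, the next gene of the cluster, had 217, 218 and 223 CPM in LPs and 45.9, 47.7 and 60.9 CPM in Phase 1 cells. Its LP libraries were nearly alike, and the Phase 1 libraries lay far below them. The mean fell from 219 ± 3.08 to 51.5 ± 8.18 CPM (−2.08 ± 0.14, −2.37 to −1.79, adjusted P value 1.0e-09).

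*Hoxa5* had 411, 315 and 276 CPM in LPs and 80.5, 68.4 and 34.5 CPM in Phase 1 cells, a fall from 334 ± 69.3 to 61.1 ± 23.8 CPM (−2.50 ± 0.22, −2.95 to −2.04, adjusted P value 5.2e-08). *Hoxa3*, the member nearest to the anterior end, had 43.1, 40.9 and 46.9 CPM in LPs and 7.76, 14.8 and 1.47 CPM, or 11, 23 and 2 reads, in Phase 1 cells. The mean fell from 43.6 ± 3.04 to 8.02 ± 6.69 CPM (−2.67 ± 0.45, −3.61 to −1.73, adjusted P value 4.5e-04). In both genes replicate 3 was the lowest Phase 1 library, and without it the differences were −1.92 for *Hoxa3* and −2.14 for *Hoxa5*, both still called. With the libraries of the 2 sgControl groups alone *Hoxa3* did not pass (adjusted P value 0.0741).

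*Hoxa7* had 237, 198 and 215 CPM in LPs and 120, 90.3 and 114 CPM in Phase 1 cells. Its fall, from 217 ± 19.6 to 108 ± 15.6 CPM (−1.01 ± 0.16, −1.33 to −0.68, adjusted P value 1.7e-04), stood at the 2-fold threshold. It came out at −0.94 without LP sgControl replicate 1, −0.88 without Phase 1 sgControl replicate 2 and −0.94 with median-of-ratios scaling, and was then no longer called. *Meis1* had 1, 5 and 0 reads in LPs and 2, 1 and 0 reads in Phase 1 cells. Its summed level was 1.23 CPM (exact Poisson 95% interval 0.452 to 2.68, counting error only) in LPs and 0.693 CPM (0.143 to 2.02) in Phase 1 cells, at or near the level of 3 reads per library, so a change was not detectable at this depth.

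**Figure D1:**
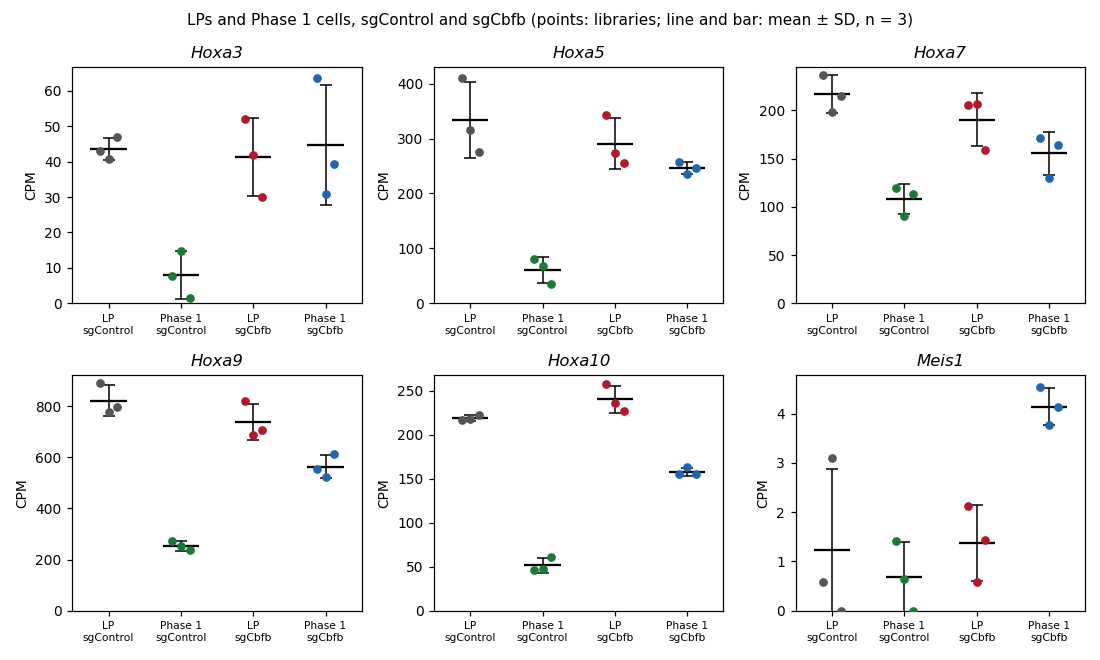
CPM of the 6 members (vertical axes, linear, from 0) in the 4 groups of experiment 1; points are libraries, lines and bars are the mean ± SD of 3, with bars cut at 0. The Phase 1 sgControl libraries lie below those of the other 3 groups for each HoxA gene, and *Meis1* stays under 5 CPM in all 12 libraries.

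The HoxA members did not fall by the same factor, which was followed within libraries as reads of 1 gene per 100 reads of *Hoxa9*. Per 100 *Hoxa9* reads, sgControl LPs had 26.4 ± 0.754 *Hoxa7* reads (25.6 to 27.0) and sgControl Phase 1 cells 42.7 ± 6.28 (35.9 to 48.3). The ratio of *Hoxa5* moved the other way, from 40.5 ± 5.77 to 23.8 ± 7.98 (14.6 to 29.5). Both ratios separated the stages in all 3 libraries, with a two-sided exact permutation P value of 0.1, the smallest that 3 libraries against 3 can give. In sgCbfb cells the ratio of *Hoxa7* was 25.9 ± 3.85 in LPs and 27.5 ± 3.18 in Phase 1 cells, and that of *Hoxa5* was 39.3 ± 2.89 and 43.8 ± 3.23, and the libraries of the stages overlapped for both ratios. The ratios of the other HoxA members overlapped between the sgControl stages, with *Hoxa3* at 5.33 ± 0.522 in LPs and 3.12 ± 2.65 in Phase 1 cells (exact permutation P value 0.4) and *Hoxa10* at 26.8 ± 2.09 and 20.5 ± 4.73 (0.2). In sgCbfb cells that of *Hoxa10* was 32.6 ± 1.58 in LPs and 28.2 ± 2.93 in Phase 1 cells, without overlap (exact permutation P value 0.1).

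**Figure D2:**
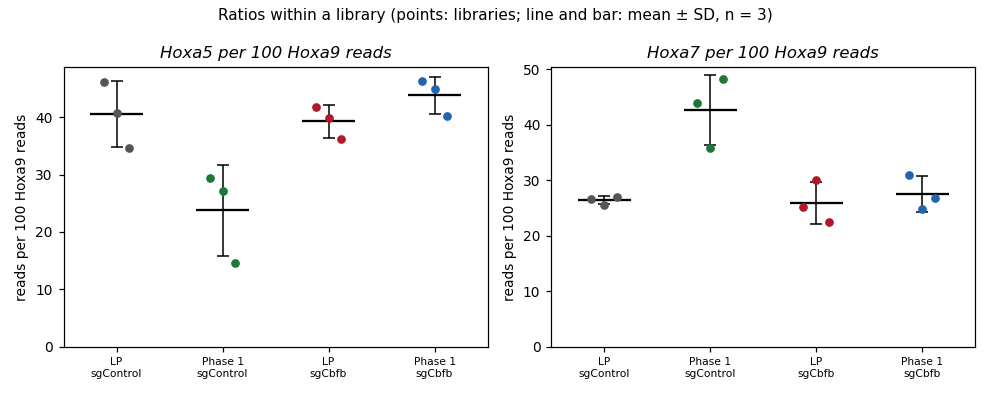
Reads of *Hoxa5* (left) and *Hoxa7* (right) per 100 *Hoxa9* reads of the same library (vertical axes, from 0) in the 4 groups of experiment 1; points are libraries, lines and bars the mean ± SD of 3. The sgControl Phase 1 libraries, at 14.6 to 29.5 for *Hoxa5* and 35.9 to 48.3 for *Hoxa7*, stand apart from the other groups.

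In sgCbfb cells no member was called between the stages, where 1.19% of genes were. *Hoxa10* alone passed the adjusted P value, as 0.959% of genes did in its direction. It had 257, 236 and 227 CPM in LPs and 156, 163 and 155 CPM in Phase 1 cells, so it fell without overlap from 240 ± 15.6 to 158 ± 4.67 CPM (−0.60 ± 0.14, −0.89 to −0.31, adjusted P value 0.0183). *Hoxa9* had 820, 687 and 707 CPM in LPs and 554, 525 and 613 CPM in Phase 1 cells, at −0.39 (−0.62 to −0.16, adjusted P value 0.0759), and these 2 genes did not overlap between the stages, as 9.74% of genes did not in that direction. The libraries of *Hoxa5* (343, 274 and 255 CPM against 257, 236 and 246 CPM) met at the edge, and those of *Hoxa7* (206, 207 and 159 against 172, 130 and 164 CPM) overlapped. Their differences were −0.23 (−0.68 to 0.23) and −0.29 (−0.62 to 0.03). *Hoxa3* had 52.2, 41.9 and 30.0 CPM in LPs and 63.5, 30.8 and 39.5 CPM in Phase 1 cells, at 0.08 (−0.86 to 1.02). For each of the 5 genes the lower bound lay above the difference measured in sgControl cells. That leaves out the spread of the sgControl difference, which the interaction given below takes in. *Hoxa7* did not pass in that interaction (adjusted P value 0.157). The pass of *Hoxa10* was lost without sgCbfb LP replicate 1 or 2 or any sgCbfb Phase 1 library (adjusted P values up to 0.108), and *Hoxa9* passed, at 0.00889, without Phase 1 sgControl replicate 3.

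The second question was what sgCbfb did within Phase 1 cells. Compared there with sgControl, 4 members were called higher, against 1.96% of all genes. The libraries of all 6 members lay above those of sgControl without overlap, as did 11.7% of all genes. This comparison uses the same Phase 1 sgControl libraries as the one between the stages, so the values stand side by side and are not separate evidence. *Hoxa3* was higher by 2.64 ± 0.45 (1.70 to 3.58, adjusted P value 5.7e-04), *Hoxa5* by 2.08 ± 0.22 (1.62 to 2.53, 1.3e-06), *Hoxa10* by 1.61 ± 0.14 (1.32 to 1.90, 6.8e-08) and *Hoxa9* by 1.15 ± 0.11 (0.92 to 1.38, 3.6e-07). As ratios of means these were 5.56-fold, 4.03-fold, 3.07-fold and 2.22-fold. *Hoxa7* was 1.44-fold higher, at 0.52 ± 0.16 (0.20 to 0.85), with an adjusted P value of 0.0513, which became 0.0141 without Phase 1 sgControl replicate 3 and also passed without Phase 1 sgControl replicate 1, sgCbfb LP replicate 3 or sgCbfb Phase 1 replicate 2. Without that library the differences of *Hoxa3* and *Hoxa5* were 1.89 and 1.72, and the same 4 genes were called. With the Phase 1 libraries alone *Hoxa3* did not pass (adjusted P value 0.0638). *Meis1* had 7, 6 and 7 reads in sgCbfb Phase 1 libraries and 2, 1 and 0 in sgControl, a ratio of 5.98 (1.77 to 31.4, counting error only), with an adjusted P value of 0.102 in limma.

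In LPs, sgCbfb called no member in either experiment, where 1.69% of genes were called in experiment 1 and 4.33% in experiment 2. In experiment 1 the differences of the HoxA members ranged from −0.19 for *Hoxa5* and *Hoxa7* to 0.13 for *Hoxa10*, with adjusted P values from 0.690 to 0.972. The intervals were −0.64 to 0.26 for *Hoxa5*, −0.38 to 0.07 for *Hoxa9* and −1.05 to 0.83 for *Hoxa3*. In experiment 2, at more than 2 times the depth, *Hoxa9* had 729, 808 and 702 CPM with sgControl and 559, 692 and 639 CPM with sgCbfb. Its libraries did not overlap, as was so in the lower direction for 15.0% of genes, and the difference was −0.25 (−0.49 to −0.01, adjusted P value 0.190). *Hoxa5* was at −0.06 (−0.32 to 0.19), *Hoxa7* at −0.11 (−0.32 to 0.10), *Hoxa10* at −0.03 (−0.26 to 0.19) and *Hoxa3* at 0.21 (−0.13 to 0.56).

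The sgCbfb difference itself differed between Phase 1 cells and LPs for 4 members in the interaction of the same fit, all with the larger value in Phase 1, where 0.589% of genes were called in that direction. It was 1.31 ± 0.16 for *Hoxa9* (0.98 to 1.63, adjusted P value 4.2e-05), 1.48 ± 0.20 for *Hoxa10* (1.07 to 1.89, 1.7e-04) and 2.27 ± 0.31 for *Hoxa5* (1.63 to 2.91, 2.1e-04). For *Hoxa3* it was 2.75 ± 0.64 (1.42 to 4.08) with an adjusted P value of 0.0312, which was lost with a pseudocount of 0.1 (0.0871), with no filter on low values (0.0609) and without any 1 of the LP libraries or Phase 1 sgCbfb replicate 1 or 3 (up to 0.130). *Hoxa7* was at 0.71 ± 0.22 (0.25 to 1.17, adjusted P value 0.157), and passed at 0.0359 without Phase 1 sgControl replicate 3. Read as an order of levels in experiment 1, the sgControl Phase 1 libraries were the lowest group for all 5 HoxA genes and overlapped no other group. The other 3 groups overlapped their neighbors in that order for *Hoxa3*, *Hoxa5* and *Hoxa7*. For *Hoxa9* the sgCbfb Phase 1 libraries also lay below both LP groups, which overlapped each other, and for *Hoxa10* the order was LP sgCbfb, LP sgControl, Phase 1 sgCbfb and Phase 1 sgControl with no overlap at any step.

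In bulk RNA, fewer cells that express a gene and less RNA in each cell cannot be told apart. The summed level of 10 early T lineage markers was 294 to 325 CPM in sgControl LPs, 1588 to 1824 CPM in sgControl Phase 1 cells, 223 to 268 CPM in sgCbfb LPs and 505 to 537 CPM in sgCbfb Phase 1 cells. It was highest in sgControl Phase 1 cells, the group where the HoxA members were lowest. Of the 10, 8 were called higher in Phase 1 than in LPs with sgControl and 4 with sgCbfb, and none was at 0 throughout a group. Between the LP groups the lower sum with sgCbfb did not stand for the whole list. *Il2ra* was called higher there and *Bcl11b* lower, and the median difference of the 10 was 0.61. The sum of 11 myeloid markers was 65.5 to 91.5 and 50.8 to 57.9 CPM in sgControl LPs and Phase 1 cells and 494 to 588 and 363 to 400 CPM with sgCbfb, with *Elane* at 0 in 3 of the 4 groups. The 14 stromal markers summed to 2.85 to 25.8 CPM over the 12 libraries, with *Dcn*, *Postn* and *Col3a1* at 0. The 7 B lineage markers summed to 297 to 410 CPM in sgControl LPs and 148 to 216 CPM in the other 3 groups, with *Cd79a* at 0. The 8 erythroid and megakaryocyte markers summed to 111 to 158 CPM in sgControl LPs and 1550 to 1590 CPM in sgControl Phase 1 cells. With sgCbfb they summed to 542 to 602 CPM in LPs and 2447 to 2651 CPM in Phase 1 cells. Of the 8, *Hbb-bt* alone was called higher in Phase 1, with sgControl and with sgCbfb. It was also called higher with sgCbfb than with sgControl in LPs. The part of these markers in the HoxA values was not tested.

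The third question was what guides against *Ctcf* or *Med12* did in LPs, and experiment 2 held the same sgControl libraries for each guide. With sgCTCF no member was called, where 2.43% of genes were, and none passed the adjusted P value, which 6.13% of genes did in the higher direction. All 6 members had higher means than with sgControl, and 4 of them, *Hoxa3*, *Hoxa5*, *Hoxa7* and *Hoxa10*, had libraries above all those of sgControl, as 16.0% of genes did. The median difference of the members was 0.30, against −0.02 for all genes tested.

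With sgCTCF, *Hoxa3* had 44.3, 55.4 and 40.4 CPM, against 37.7, 30.4 and 30.9 CPM with sgControl. Its mean was 1.41-fold higher, 46.7 ± 7.77 against 33.0 ± 4.07 CPM (0.48 ± 0.17, 0.13 to 0.83, adjusted P value 0.0714). *Hoxa5* had 298, 285 and 285 CPM, against 233, 247 and 214 CPM, a 1.25-fold higher mean of 289 ± 7.55 against 231 ± 16.4 CPM (0.32 ± 0.12, 0.07 to 0.58, adjusted P value 0.10). The 3 sgCTCF values of *Hoxa5* were close together, and the gap to the highest control was wider than their range. Whether these genes passed depended on the libraries from which the spread was estimated. With the sgCTCF and sgControl libraries alone the adjusted P values were 0.0384 for *Hoxa3* and 0.00836 for *Hoxa5*. Without sgMed12 replicate 2, which is in neither group, they were 0.0257 and 0.0109, and *Hoxa10* also passed at 0.0472, while without sgMed12 replicate 1 they were 0.0449 and 0.0348. These were the only passes. Of 22 alternative limma and edgeR fits, *Hoxa3* passed in 3 (adjusted P values up to 0.338). *Hoxa5* passed in 3 of 22 (up to 0.312) and *Hoxa10* in 1 of 22 (up to 0.466).

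*Hoxa10* had 233, 198 and 194 CPM with sgCTCF and 175, 183 and 159 CPM with sgControl, a 1.21-fold higher mean of 208 ± 21.7 against 172 ± 12.2 CPM (0.27 ± 0.11, 0.04 to 0.50, adjusted P value 0.129). *Hoxa7* had 175, 171 and 178 CPM against 158, 165 and 138 CPM (0.18 ± 0.10, −0.03 to 0.40, adjusted P value 0.299). *Hoxa9*, with 837, 796 and 763 CPM against 729, 808 and 702 CPM, overlapped (0.10 ± 0.12, −0.14 to 0.34, adjusted P value 0.678). The intervals of all 5 HoxA genes stayed within 2-fold in either direction. *Meis1* had 12, 5 and 9 reads with sgCTCF and 3, 2 and 6 with sgControl, a ratio of 2.29 (1.09 to 5.14, counting error only), with overlapping libraries and an adjusted P value of 0.252. Beside these values, the summed early T lineage markers were 301 to 344 CPM with sgCTCF and 246 to 275 CPM with sgControl. In the same order the myeloid markers were 96.1 to 127 and 70.4 to 72.6 CPM, and the B lineage markers 198 to 228 and 244 to 318 CPM. The erythroid and megakaryocyte markers were 59.3 to 89.9 and 129 to 144 CPM. The stromal markers were 23.1 to 42.7 and 7.55 to 44.8 CPM, with *Col3a1*, *Postn* and *Dcn* at 0. The genes of a list did not all move with its sum. Of the 8 myeloid markers tested, *Fcgr3* was called higher, and *Mpo* and *F13a1* were lower by the adjusted P value alone. Their median difference was −0.68. Of the 4 B lineage markers tested, *Pax5* was called higher, and reads of *Ebf1* were lower by the adjusted P value alone. The part of these markers was not tested.

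**Figure D3:**
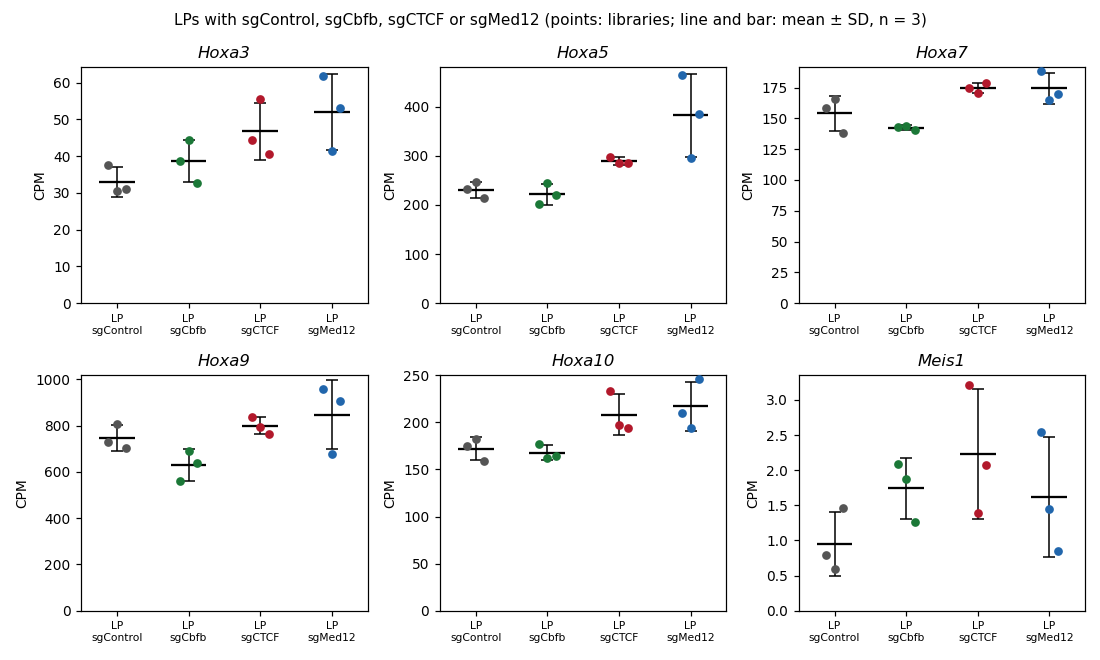
CPM of the 6 members (vertical axes, linear, from 0) in LPs of experiment 2 with sgControl, sgCbfb, sgCTCF or sgMed12; points are libraries, lines and bars the mean ± SD of 3. *Hoxa5* reaches 465 CPM in 1 sgMed12 library, its sgCTCF libraries lie at 285 to 298 CPM, and the sgControl libraries lie at 214 to 247 CPM.

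With sgMed12 no member was called either, where 1.03% of genes were, but *Hoxa3* and *Hoxa5* rose by the adjusted P value alone, as 2.53% of genes did. *Hoxa5* had 465, 296 and 386 CPM and was 1.65-fold higher, at 382 ± 84.3 CPM (0.70 ± 0.12, 0.45 to 0.95, adjusted P value 0.00184). *Hoxa3* had 61.9, 41.3 and 53.1 CPM and was 1.58-fold higher, at 52.1 ± 10.3 CPM (0.63 ± 0.17, 0.28 to 0.98, adjusted P value 0.0272). *Hoxa10* had 211, 194 and 246 CPM and was 1.26-fold higher (0.33 ± 0.11, adjusted P value 0.0671), also without overlap, as was so for 9.33% of genes in that direction. *Hoxa7*, at 189, 165 and 170 CPM, and *Hoxa9*, at 959, 677 and 906 CPM, overlapped the controls, and *Meis1* had 9, 5 and 3 reads. Replicate 2 was the lowest sgMed12 library for each HoxA gene. Without it the differences were 0.78 for *Hoxa3* (adjusted P value 8.9e-04) and 0.87 for *Hoxa5* (1.9e-07), and *Hoxa9* (0.00893) and *Hoxa10* (0.00523) passed too. With the libraries of sgMed12 and sgControl alone, *Hoxa3* (0.146) and *Hoxa5* (0.111) did not pass, and *Hoxa3* was also lost without sgMed12 replicate 1 or 3 or sgControl replicate 2 or 3 (up to 0.144). Mitochondrial reads took 13.7%, 8.44% and 11.2% of the sgMed12 libraries 1 to 3 and 6.76% to 8.15% of the other 9. The summed early T lineage markers were 346 to 403 CPM with sgMed12 and 246 to 275 CPM with sgControl, the myeloid markers 87.2 to 104 and 70.4 to 72.6 CPM, and the 7 progenitor markers 794 to 1033 and 1123 to 1279 CPM. With values scaled without mitochondrial genes, still no member was called against sgControl, and *Hoxa5* still passed the adjusted P value. Beyond that, the part of the markers and of the mitochondrial share in the HoxA values was not tested.

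Between the guides, sgCTCF libraries were higher than sgCbfb libraries by the adjusted P value for *Hoxa5* (1.31-fold, 0.0234), *Hoxa7* (1.23-fold, 0.0411), *Hoxa9* (1.27-fold, 0.0317) and *Hoxa10* (1.24-fold, 0.0472). That share of 4 in 6 stands beside 11.5% of all genes in that direction, and none was called, where 6.87% of genes were. These 4 also did not overlap, as was so for 19.6% of genes. Without any 1 sgCTCF library none of the 4 passed, nor did any without sgCbfb replicate 1 or 3, with adjusted P values up to 0.251. *Hoxa7* was also lost without sgCbfb replicate 2 or sgControl replicate 1, and *Hoxa10* without sgCbfb replicate 2 or any sgControl library. Against sgMed12, sgCTCF was lower for *Hoxa5* alone (0.757-fold, −0.38, adjusted P value 0.0328, overlapping libraries, up to 0.209 without sgMed12 replicate 1 or 3 or any sgCTCF library), where 8.09% of genes were lower by the adjusted P value, and no member was called, where 4.01% of genes were. The sgMed12 libraries were higher than sgCbfb libraries for *Hoxa5* (1.73-fold, 5.9e-05), *Hoxa10* (1.29-fold, 0.0225) and *Hoxa9* (1.35-fold, 0.0129, overlapping), where 7.03% of genes were higher by the adjusted P value, again with none called where 4.48% of genes were. Leaving out sgCbfb replicate 1 or sgMed12 replicate 1 or 3 ended the pass of *Hoxa9* (up to 0.0881), and leaving out sgCbfb replicate 2 or 3 or sgMed12 replicate 3 that of *Hoxa10* (up to 0.159). With only the groups compared in the fit, *Hoxa9* (0.0944) and *Hoxa10* (0.0806) did not pass for sgMed12 against sgCbfb, nor did *Hoxa5* for sgCTCF against sgMed12 (0.0946). As an order of levels in experiment 2, sgMed12 had the highest mean for *Hoxa3*, *Hoxa5*, *Hoxa9* and *Hoxa10*, followed by sgCTCF, and the libraries of these neighbors overlapped in each gene. The summed myeloid markers were 722 to 819 CPM with sgCbfb, 96.1 to 127 CPM with sgCTCF and 87.2 to 104 CPM with sgMed12. In the same order the erythroid and megakaryocyte markers were 797 to 955, 59.3 to 89.9 and 98.9 to 148 CPM. The early T lineage markers were 121 to 152, 301 to 344 and 346 to 403 CPM. Among them *Il2ra* was called higher with sgCbfb than with either other guide. The part of these markers in the differences between guides was not tested.

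Reads of *Hoxa5* per 100 *Hoxa9* reads were 31.0 ± 0.816 with sgControl, 35.2 ± 0.820 with sgCbfb, 36.3 ± 0.935 with sgCTCF and 44.9 ± 3.10 with sgMed12. Each of the 3 guides lay above sgControl in all 3 libraries, with an exact permutation P value of 0.1, the smallest possible. The 5 HoxA members together had 1461 to 1588 CPM with sgCTCF, 1244 to 1434 CPM with sgControl, 1119 to 1286 CPM with sgCbfb and 1374 to 1885 CPM with sgMed12.

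**Figure D4:**
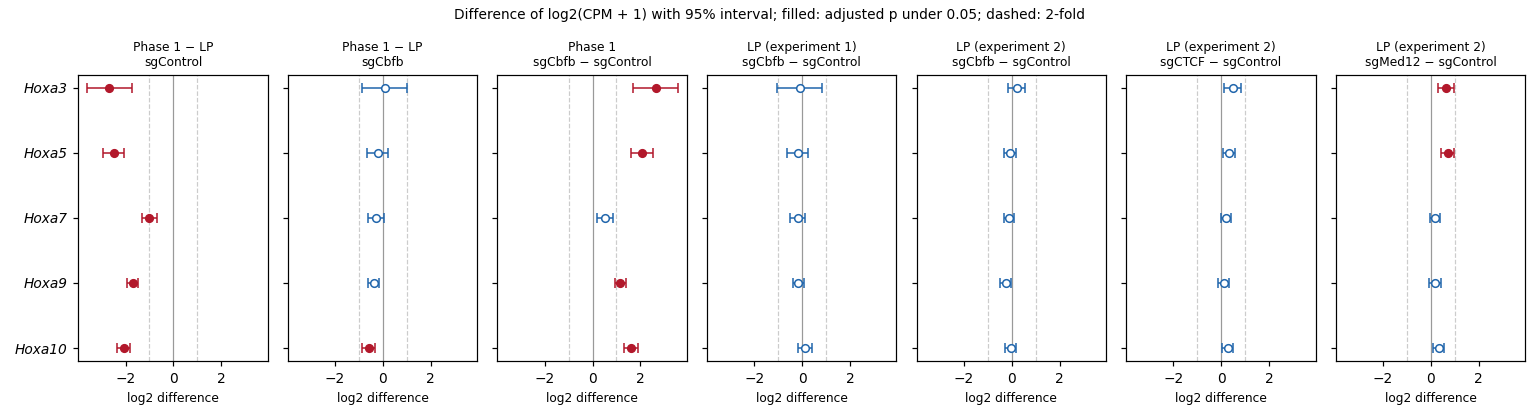
Difference of log2(CPM + 1) between 2 groups (horizontal axes) for the 5 HoxA members in 7 comparisons; points are limma estimates, bars 95% intervals, filled points have an adjusted P value under 0.05, and dashed lines mark 2-fold. The largest differences are in the panels that hold Phase 1 sgControl cells, from −2.67 to 2.64, and the sgCTCF values lie between 0.10 and 0.48.

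The rest of the cluster was examined with lists of its other protein-coding genes, its non-coding genes and its neighbors. Of the 6 other protein-coding HoxA genes, 4 were tested and *Hoxa13* was at 0 in all libraries. In experiment 1 none was called in any comparison. *Hoxa6*, between *Hoxa5* and *Hoxa7*, had 21.5 ± 4.09 CPM in sgControl LPs and 7.36 ± 5.20 CPM in Phase 1 cells, with an adjusted P value of 0.101.

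With sgCTCF, the change in the cluster that passed was at its posterior side, in genes of low level. *Hoxa11*, the gene beyond *Hoxa10*, had 9.39, 5.85 and 5.32 CPM with sgCTCF and 1.58, 0.590 and 0.487 CPM with sgControl. The sums were 79 reads and 10 reads, a ratio of 7.66 (3.95 to 16.6, counting error only), and the difference was 2.07 ± 0.35 (adjusted P value 2.7e-04). Its antisense gene *Hoxa11os* had 36 reads against 2, a ratio of 17.4 (4.49 to 149.5), at 1.80 ± 0.40 (adjusted P value 0.00365). Both stayed under the mean of 10 CPM and were not called, and their exons overlap on opposite strands, so their reads cannot be told apart without strand. With sgCbfb, *Hoxa11* had 3.88, 4.02 and 3.27 CPM, 41 reads in all, a ratio of 4.19 to sgControl (2.06 to 9.37), at 1.37 with an adjusted P value of 0.00914 (0.0524 without sgControl replicate 3). *Hoxa11os* passed with sgCbfb too, with 21 reads against 2, a ratio of 10.7 (2.62 to 94.3). The sgCTCF libraries of *Hoxa11* lay above those of sgMed12 (1.36, adjusted P value 0.00788). Between sgCTCF and sgCbfb neither *Hoxa11* nor *Hoxa11os* passed the adjusted P value. In experiment 1, sgCbfb gave 4.07 ± 2.60 CPM of *Hoxa11* in LPs against 1.88 ± 1.16 CPM, with an adjusted P value of 0.695.

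With sgMed12, 3 other genes of the cluster were called. *Hoxa2* had 13.8, 6.68 and 10.5 CPM, against 4.48, 2.95 and 4.38 CPM with sgControl, and was called 2.63-fold higher (1.16 ± 0.30, adjusted P value 0.0233). *Hoxa6* had 17.8, 13.7 and 21.9 CPM, against 5.80, 10.9 and 6.82 CPM, and was called 2.26-fold higher (adjusted P value 0.0117). The non-coding *Hoxaas3*, which overlaps *Hoxa7* and *Hoxa3* on the other strand, had 12.998, 11.04 and 15.9 CPM, against 1.58, 6.20 and 3.90 CPM, and was called 3.42-fold higher (adjusted P value 0.00651). None of the 3 passed with the sgMed12 and sgControl libraries alone, and none without sgMed12 replicate 3, with adjusted P values of up to 0.144, 0.132 and 0.112. *Hoxa2* was also lost without sgMed12 replicate 1 or sgControl replicate 2 or 3, and *Hoxa6* without sgControl replicate 1. The sgCTCF libraries were lower than those of sgMed12 for *Hoxaas3* (−1.54, adjusted P value 0.00250) and *Hoxa2* (−0.92, adjusted P value 0.0342).

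**Figure D5:**
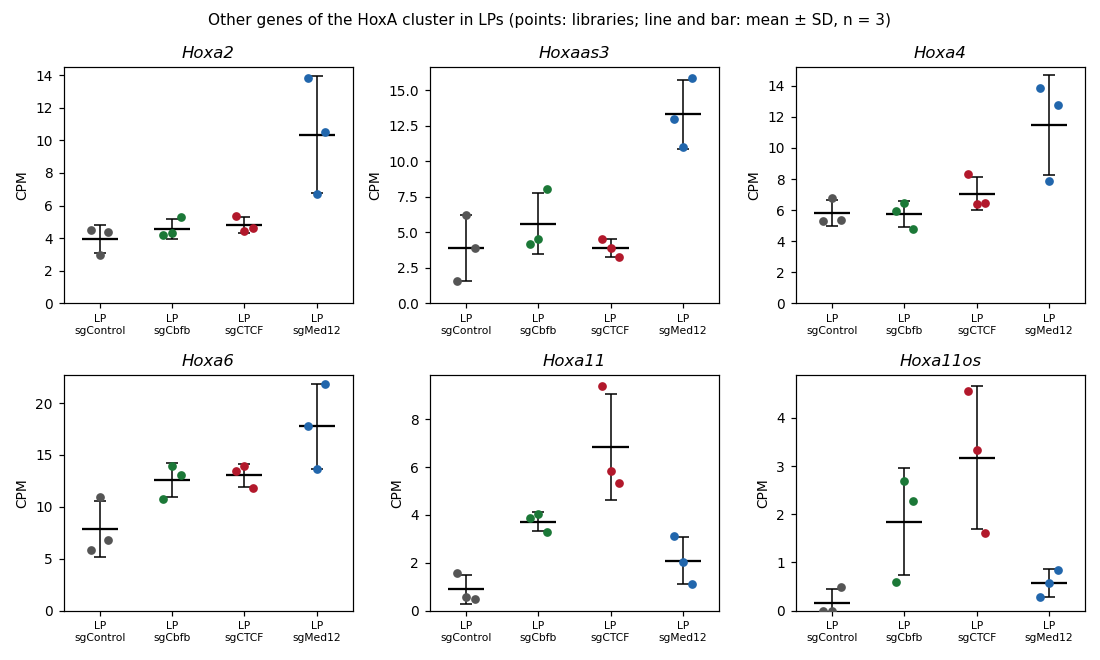
CPM (vertical axes, linear, from 0) of 6 other genes of the HoxA cluster in LPs of experiment 2; points are libraries, lines and bars the mean ± SD of 3, with bars cut at 0. *Hoxa11* and *Hoxa11os* are highest with sgCTCF, at up to 9.39 and 4.56 CPM, and *Hoxa2*, *Hoxaas3*, *Hoxa4* and *Hoxa6* are highest with sgMed12.

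Of 6 neighbors outside the cluster, 4 were tested and *Evx1* was at 0. *Skap2*, an adaptor protein gene, had 118 ± 19.1 CPM in sgControl LPs and 68.2 ± 15.3 CPM in Phase 1 cells (−0.80, adjusted P value 0.00855), and was not called. In experiment 2, *Snx10* was called higher with sgCbfb than with sgControl, at 14.5 ± 4.28 against 6.12 ± 1.43 CPM (1.11, adjusted P value 0.00431, lost at 0.0521 without sgCbfb replicate 2), and *Tax1bp1* was lower there by the adjusted P value alone (−0.46, 8.7e-04), as in Phase 1 cells of experiment 1 (−0.61, 0.00563). With sgCTCF or sgMed12 none of the neighbors passed against sgControl. Of the 28 genes of the HoxB, HoxC and HoxD clusters *Hoxb4* alone was tested, at up to 10.4 CPM, with 0 called.

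None of the 10 TALE genes, of which 7 were tested, was called in any comparison. *Meis2* was at 0 in experiment 1. *Pbx2*, the PBX gene with a mean over 10 CPM in every group, had 120 ± 5.43 CPM in sgControl LPs, 84.7 ± 6.80 CPM in sgControl Phase 1 cells and 122 ± 20.04 CPM in sgCbfb Phase 1 cells, with an adjusted P value of 0.0584 between the sgControl stages. With sgMed12 *Pbx2* was 84.0 ± 12.2 CPM against 116 ± 4.95 CPM (−0.47, adjusted P value 0.0194). *Pbx3* ranged from 0.619 to 11.2 CPM, *Pbx4* from 4.54 to 16.9 CPM and *Pknox1*, which encodes another HOX and PBX cofactor, from 36.7 to 73.9 CPM. Between the guides some TALE genes passed by the adjusted P value alone. *Pbx3* was higher and *Tgif1* lower with sgCTCF and with sgMed12 than with sgCbfb. *Meis3* was higher with sgCTCF than with sgCbfb or sgMed12, and *Pbx2* was higher with sgCTCF than with sgMed12. *Meis3* was the TALE gene that passed with sgCTCF against sgControl, at 5.62 ± 1.496 against 1.23 ± 1.67 CPM (1.79 ± 0.42, adjusted P value 0.00577), and its sgControl libraries had 12 reads in 1 and 1 read in each of the others.

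Neither the 14 MLL and DOT1L genes nor the 15 Polycomb genes held a called gene in any comparison, and all of them were tested. By the adjusted P value, *Kmt2a*, which encodes MLL itself, was higher in Phase 1 than in LPs with sgControl (343 ± 5.85 against 252 ± 28.3 CPM, 0.0411), opposite to the HoxA members. *Jarid2*, of Polycomb complex PRC2, was lower (125 ± 13.6 against 177 ± 7.13 CPM, adjusted P value 0.0430). With sgCTCF 1 MLL gene, *Aff1*, passed (0.49, adjusted P value 0.0370) and no Polycomb gene did.

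A list of 15 progenitor genes linked to HOXA9 and MEIS1 in stem cells and leukemia, 13 of them tested, moved in mixed directions. Between the sgControl stages 2 fell and were called. *Flt3*, a cytokine receptor of lymphoid progenitors, went from 273 ± 15.6 to 36.1 ± 20.4 CPM (−3.06 ± 0.29, adjusted P value 1.6e-07) and *Mef2c*, a factor of lymphoid progenitors, from 961 ± 65.6 to 299 ± 57.0 CPM (−1.70, 3.2e-09). *Cd34* and *Il7r* fell and *Myb*, *Id2* and *Cdk6* rose by the adjusted P value alone. In Phase 1 cells sgCbfb was higher for 4 called genes, *Mef2c* (936 ± 67.6 CPM), *Flt3* (98.5 ± 14.05), *Cd34* (434 ± 16.8 against 163 ± 11.5) and *Lmo2* (15.5 ± 3.27 against 3.32 ± 3.35), while *Myb* and *Bcl2* were lower by the adjusted P value. In the interaction *Mef2c* (1.51, adjusted P value 2.3e-05) and *Flt3* (1.69, 0.0407) had the direction of the HoxA members and *Myb* (−1.23, 3.8e-05) had the other.

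In LPs of experiment 2, sgCTCF gave 1 called gene of this list, *Myc*, which fell from 36.8 ± 5.08 to 15.7 ± 5.81 CPM (−1.23 ± 0.22, adjusted P value 3.9e-04). *Cd34* (−0.95), *Gfi1b* (−0.93), *Myb* (−0.50), *Cdk6* (−0.46) and *Flt3* (−0.35) fell by the adjusted P value alone, and *Id2*, an inhibitor of E proteins, rose (0.79). The list's median was −0.35, against 0.30 for the HoxA members and *Meis1* in the same comparison. With sgMed12 none was called, *Cd34* was higher, and *Flt3*, *Id2* and *Mef2c* were lower by the adjusted P value. With sgCbfb *Erg*, *Cd34* and *Lmo2* were called higher, at 58.7 ± 9.45, 507 ± 48.0 and 29.4 ± 3.45 CPM against 13.05 ± 3.13, 239 ± 10.8 and 13.4 ± 2.33 CPM. By the adjusted P value alone *Myc* (0.81), *Myb* (0.60) and *Mef2c* (0.32) were higher there, and *Gfi1b* (−0.85), *Il7r* (−0.69), *Bcl2* (−0.52) and *Flt3* (−0.33) lower.

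The profile of each HoxA member over the 12 libraries of an experiment was set beside those of the non-members among 8622 genes. The measure was the lower of the Pearson r values of log2(CPM + 1) in the 2 experiments. These r values describe likeness only, since libraries of a group share their treatment. Each HoxA member had a higher r of this kind with another member than with any of these genes: with *Hoxa5* for *Hoxa9* (0.96 and 0.85), *Hoxa7* (0.85 and 0.83), *Hoxa10* (0.92 and 0.79) and *Hoxa3* (0.94 and 0.81), and so for *Hoxa5* with *Hoxa9*. Outside the members, the closest genes to *Hoxa9* were *Maml3* (r = 0.79 and 0.92), which encodes a coactivator of Notch, *Syne1* (0.78 and 0.85) and *Sox6* (0.77 and 0.77). For *Hoxa5* they were *Rabgap1l* (0.89 and 0.83), *Senp6* (0.88 and 0.78) and *Gm6093* (0.82 and 0.74). *Atp13a2* and *Cd69* were among the closest 3 of both *Hoxa7* (*Atp13a2* 0.88 and 0.82) and *Hoxa10* (0.88 and 0.76), with *Syne1* and *Tsc22d2* as their respective other, and *Hoxa3* had *Gria2* (0.79 and 0.77), *Pbxip1*, a PBX-interacting protein gene (0.72 and 0.76), and *mt-Cytb* (0.71 and 0.72). Among the 5 HoxA members themselves, r ranged from 0.72 to 0.97 in experiment 1 and from 0.59 to 0.85 in experiment 2.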

How the data were processed

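RNA of sorted cells was made into QuantSeq 3′ libraries, read as 75-bp single reads. The authors trimmed reads with fastp and mapped them to mm10 with STAR; the counter, annotation and strand setting were not given in the sources used here. The deposited values are headed TPM but are CPM: low values are whole multiples of 1 step whatever the gene's length, and reads were recovered by dividing by that step (tolerance 0.1 read; at least 99.96% of values whole). A line with no gene name, at 1 read, and the authors' mean sgControl column were not used.

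Groups came from the sample labels. Genes at 1 CPM or more in at least 3 libraries (13239 and 13177 genes) entered limma (version 3.58.1, R version 4.3.3) as log2(CPM + 1), with a variance trend, the 4 groups of an experiment in 1 fit, and Benjamini-Hochberg adjustment over all of them; the code was tested on simulated data. Thresholds (adjusted P value under 0.05, 2-fold, 10 CPM) are those of the study; interaction calls had no fold threshold. The edgeR 4.0.16 quasi-likelihood test on recovered reads was an alternative, with others on scaling, filters, pseudocount and libraries. Exact permutation tests were two-sided. Intervals on reads cover counting error only.

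The 6 members and all lists were chosen with earlier results of these data known. Named beside the members are the 3 targeted genes and, from each list, the called genes, up to 4 with the smallest adjusted P values and defining genes at 0; for each member over 10 CPM, the 3 most alike genes that are no members. *Hoxa6*, *Hoxa11* in experiment 1, *Pbx2* to *Pbx4*, *Pknox1* and the list genes given by symbol beyond these were added after their values were seen. Positions came from the GRCm38 annotation and promoters from RefSeq on GRCm38.p6, matched by symbol for 6 of 6 members.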

Additional observations from a re-analysis of the deposited data

Results flagged for a closer look

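Of the member results, 4 were singled out because the sgCbfb difference was not the same in Phase 1 cells as in LPs, by the interaction in the limma fit (log2 scale, Phase 1 minus LP, 3 libraries in each of 4 groups). The values were 2.75 for *Hoxa3*, 2.27 for *Hoxa5*, 1.31 for *Hoxa9* and 1.48 for *Hoxa10*. All 4 use the 3 Phase 1 sgControl libraries, of which replicate 3 stood farthest from its group; without it they were 1.997, 1.91, 1.25 and 1.60, and *Hoxa7* joined them at 0.76.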

How the results depend on the processing

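The 66 member differences gave 1561 values under the alternatives. Of these 11 differences changed sign in at least 1 setting, in 19 values, none with an adjusted P value under 0.05 before or after. For *Hoxa7*, sgCTCF minus sgMed12 was −0.016 with median-of-ratios scaling, −0.044 scaled without mitochondrial genes, −0.012 in edgeR with TMM and −0.020 in edgeR with median-of-ratios factors. With 1 library left out the other changes of sign gave ranges, in the LP sgCbfb comparison of experiment 1, of −0.290 to 0.1005 for *Hoxa3* and −0.161 to 0.856 for *Meis1*. Between the stages *Meis1* ranged from −0.689 to 0.328 with sgControl and *Hoxa3* from −0.204 to 0.306 with sgCbfb. In experiment 2, sgCbfb against sgControl ranged from −0.137 to 0.0027 for *Hoxa5* and from −0.092 to 0.0080 for *Hoxa10*. *Meis1* ranged from −0.0014 to 0.408 for sgCTCF against sgCbfb and from −0.351 to 0.117 for sgMed12 against sgCbfb. Against sgMed12, sgCTCF ranged from −0.035 to 0.061 for *Hoxa7*, −0.224 to 0.027 for *Hoxa9* and −0.142 to 0.036 for *Hoxa10*. The cause of these changes was not tested; all these values are near 0 or rest on few reads.

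The number of members called stayed within 1.5 times in 257 of 262 alternatives. The other 5 dropped the fold threshold and gave 1 member for the stages with sgCbfb, 2 for sgMed12 against sgControl, 4 for sgCTCF against sgCbfb, 1 for sgCTCF against sgMed12 and 3 for sgMed12 against sgCbfb. Over all genes, the calls for sgMed12 against sgControl went from 136 to 54 with no filter, 18 with those 2 groups alone and 68 at a mean over 20 CPM, and ranged from 54 to 358 with 1 library left out (66 without sgControl replicate 2; 61, 358 and 54 without sgMed12 replicates 1 to 3). Those between the sgControl stages went from 449 to 268 with those groups alone. Without the fold threshold the counts were 726 and 267 (from 158) between the stages with sgControl and sgCbfb, 1272 (from 570), 1084 (from 320) and 822 for sgCbfb, sgCTCF and sgMed12 against sgControl, and 2260 (from 905), 2105 (from 529) and 1794 (from 590) for sgCTCF against sgCbfb, sgCTCF against sgMed12 and sgMed12 against sgCbfb. At a mean over 20 CPM they were 198 for sgCTCF against sgControl and 596, 312 and 387 for these last 3.

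Libraries with the same replicate number were at most weakly alike. Their deviations from the group means correlated over 0.1 in 2 of 18 same-number pairs of experiment 1 and 6 of 18 of experiment 2. The median r of same-number and other pairs was 0.041 and −0.021 in experiment 1 and 0.075 and −0.026 in experiment 2. A weak pairing may thus be present, which the main fit leaves out. With the replicate number as a block no call of a member changed, and *Hoxa3* and *Hoxa5* had adjusted P values of 0.0695 and 0.110 with sgCTCF. Over all genes 324 were then called for sgCTCF against sgControl. *Hoxa7* passed with sgCbfb in Phase 1 (0.0298, from 0.0513) and *Hoxa9* between the sgCbfb stages (0.0456, from 0.0759). Depth limits *Meis1*, *Hoxa11* and *Hoxa11os* most, and *Hoxa3* in Phase 1 sgControl cells.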
